A study of Mus musculus with 14 samples.

Results

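Inhibitory checkpoint receptors and their ligands were followed through the RNA-Seq libraries of activated CD4+ T cells with reduced class I histone deacetylase activity. The set held 9 genes chosen by symbol: the receptors Pdcd1, Ctla4, Lag3, Havcr2, Btla and Cd160, and the ligands Cd200, Cd274 and Pdcd1lg2. All 9 were among the 15106 genes tested in the first experiment, and 8 were among the 13913 tested in the second. In the first experiment, naive CD4+ T cells (CD25-, CD44lo, CD62L+) of C57BL/6 WT mice and of Hdac1 fl/fl Hdac2 fl/+ Cd4-Cre mice (HDAC1cKO-HDAC2HET) were activated for 3 days with anti-CD3 and anti-CD28 plus IL-2 under nonpolarizing conditions, with 4 libraries per genotype. In the second, WT and Hdac1 fl/fl Cd4-Cre (HDAC1cKO) cells, with 3 libraries per genotype, were given 12 hours of anti-CD3 restimulation after 3 days with anti-CD3 and anti-CD28. The study used littermate controls and mice of both sexes, 6 to 12 weeks old, which is not stated separately for the second experiment. Xist, the noncoding RNA of the inactive X chromosome of female cells, was expressed in every library of the first experiment. In the second it was not balanced between the genotypes, as given below. In both experiments viable cells were sorted before RNA extraction. Cd4-Cre deletes during thymic development in all cells that have expressed CD4, so the genes were deleted before activation, and in CD8+ T cells as well. The genotype, the culture and the library pool differ together between the experiments. A difference in fold change between them therefore cannot be assigned to genotype, to the extra restimulation, to the pool or to the imbalance in Xist. Named genes per library also differed, at 36391 to 38237 in the first experiment and 23268 to 24032 in the second. The labels do not say which libraries came from separate mice, and p-values measure the spread between libraries.

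Inhibitory checkpoint receptors are surface proteins that T cells acquire or raise on activation and that dampen signalling from the antigen receptor and from CD28. PD-1 (Pdcd1) binds PD-L1 (Cd274) and PD-L2 (Pdcd1lg2), CTLA-4 competes with CD28 for CD80 and CD86, LAG-3 is a CD4-related protein that binds MHC class II, TIM-3 (Havcr2) binds several ligands including galectin-9, and BTLA and CD160 share the ligand HVEM (Tnfrsf14). CD200 is displayed on activated T cells and engages the receptor CD200R1 on other leukocytes. Sustained expression of several such receptors together is known from chronically stimulated T cells.

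The receptors moved in opposite directions in HDAC1cKO-HDAC2HET cells. Pdcd1 and Btla fell the most, Cd200, Ctla4 and Cd274 fell by less, and Lag3 rose. Havcr2 was also higher but stayed near the detection limit, and Cd160 and Pdcd1lg2 did not pass the test. In restimulated HDAC1cKO cells, Ctla4 was the member that passed, and it was lower. A gene passed at an adjusted p of at most 0.05 in a limma fit on log2(FPKM + 0.1), where FPKM is the number of sequenced fragments scaled to the length of the transcript and to the depth of the library. Of the 9 members, 2 were higher and 5 lower in HDAC1cKO-HDAC2HET cells. Havcr2, 1 of the 2, entered the test through its mutant libraries alone, and without it 1 of 8 was higher and 5 were lower. Of all genes tested, 24.2% were higher and 27.6% lower in that comparison, and 51.8% passed in either direction. With a fold change of at least 2 as a further condition, 1 member was higher and 2 were lower, against 5.6% and 5.55% of all genes. In HDAC1cKO cells, 0 of 8 members were higher and 1 was lower, against 0.0144% higher and 0.0575% lower among all genes tested, and that member also met the fold limit (0.0575% of all genes). At an unadjusted p under 0.05 the second count was 4 of 8 members, against 14.4% of all genes.

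**Figure D1:**
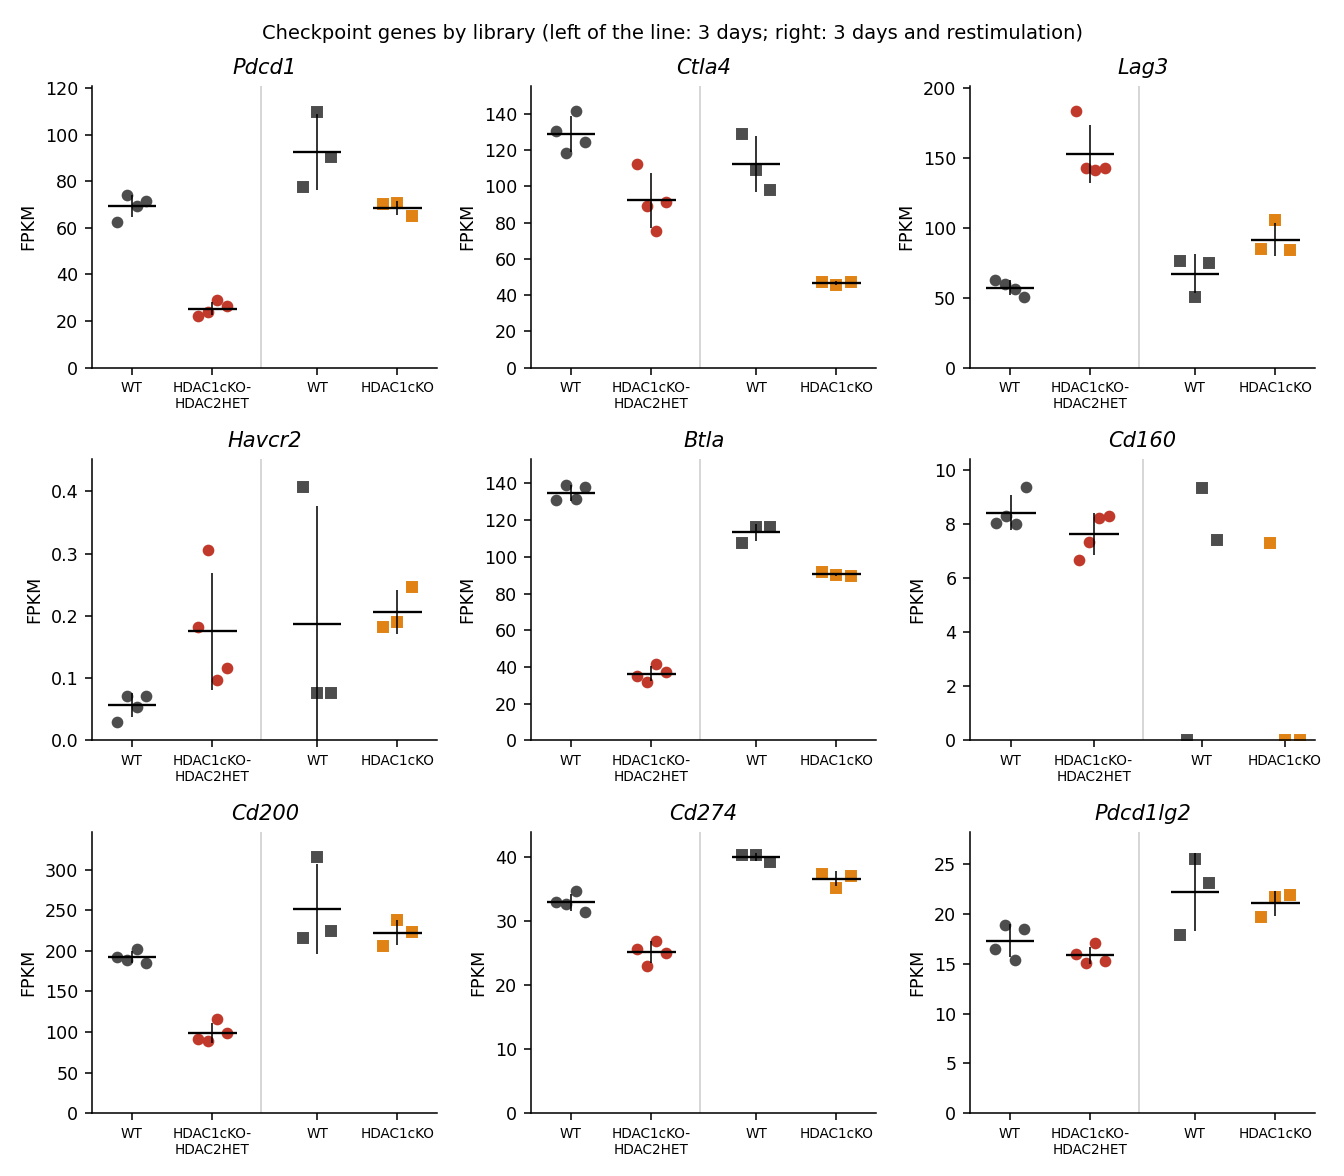
FPKM (vertical axis, from 0) of each checkpoint gene in every library, with WT and HDAC1cKO-HDAC2HET libraries to the left of the grey line and WT and HDAC1cKO libraries to the right. Horizontal bars are group means and vertical bars are 1 SD (none for Cd160 in the second experiment, which is listed at 0 in 3 libraries); the 4 mutant libraries of the first experiment sit below all WT libraries for Pdcd1, Ctla4, Btla, Cd200 and Cd274 and above them for Lag3 and Havcr2.

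The deleted genes followed the labels. Hdac1 fell from 78.1 ± 1.44 FPKM (SD, n = 4) to 8.30 ± 1.89 (n = 4) in HDAC1cKO-HDAC2HET and from 75.6 ± 4.78 (n = 3) to 10.1 ± 1.82 (n = 3) in HDAC1cKO libraries. Hdac2 fell from 59.0 ± 1.04 to 35.4 ± 1.36 FPKM in HDAC1cKO-HDAC2HET libraries and was 72.4 ± 8.65 and 80.4 ± 6.91 in WT and HDAC1cKO libraries of the second experiment. Libraries held an estimated 23825318 to 56361084 fragments. The 6 markers of CD4 T cells, among them Cd4 and Cd3e, were all expressed, and their summed level ran from 1142 to 1254 FPKM in WT and from 890.5 to 910.6 FPKM in HDAC1cKO-HDAC2HET libraries. The 2 markers of CD8 T cells summed to 3.28 to 5.96 FPKM in WT and 11.7 to 15.2 FPKM in HDAC1cKO-HDAC2HET libraries, nearly all of it Cd8b1. The 5 B cell markers summed to 0.502 to 0.945 and 2.79 to 4.40 FPKM, of which Cd79b alone reached 1 FPKM. The 9 markers of macrophages, monocytes and dendritic cells summed to 0.874 to 3.98 and 4.20 to 6.83 FPKM, with Csf1r at 0 in every library. The listed NK cell markers stayed under 0.1 FPKM in sum in the first experiment. In the second experiment the CD8 T cell markers summed to 3.80 to 4.86 FPKM in WT and 6.52 to 7.30 FPKM in HDAC1cKO libraries, and the CD4 T cell markers to 862 to 1122 and 993 to 1101 FPKM. B cell markers summed there to 0.684 to 0.803 and 0.755 to 1.04 FPKM, and those of macrophages, monocytes and dendritic cells to 6.64 to 8.60 and 7.21 to 8.01 FPKM. NK cell markers reached 0.209 FPKM in restimulated WT and 0.0739 FPKM in HDAC1cKO libraries. Several of these levels moved with genotype beside the checkpoint genes, and their part in the results was not tested. In bulk libraries, fewer cells expressing a receptor and less RNA per cell cannot be told apart.

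In WT cells after 3 days, the members spanned a wide range of levels. Cd200 was highest at 192 ± 7.28 FPKM (SD, n = 4), followed by Btla at 135 ± 4.42 and Ctla4 at 129 ± 9.92, whose libraries overlapped. Pdcd1 stood at 69.3 ± 4.84, Lag3 at 57.0 ± 5.32, Cd274 at 33.0 ± 1.37, Pdcd1lg2 at 17.3 ± 1.66 and Cd160 at 8.42 ± 0.640, and no neighbours in this stretch overlapped. Havcr2 came last, at 0.0565 ± 0.0194 FPKM. In HDAC1cKO-HDAC2HET cells the order changed: Lag3 was first at 152 ± 20.5 FPKM (n = 4), ahead of Cd200 and Ctla4, which overlapped each other. Btla and Pdcd1 followed without overlapping each other, and Pdcd1 overlapped Cd274. The order in restimulated WT cells was that of 3-day WT cells, with Ctla4 overlapping both Btla and Pdcd1. In restimulated HDAC1cKO cells Cd200 stayed first, Lag3 and Btla overlapped in the next places, and Ctla4 came below Pdcd1.

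PD-1 is induced by signalling through the antigen receptor. Pdcd1 (chr1:94038305-94052553, minus strand) measured 62.7, 73.9, 69.3 and 71.4 FPKM in the 4 WT libraries and 22.1, 23.9, 28.9 and 26.3 FPKM in the 4 HDAC1cKO-HDAC2HET libraries. The highest mutant library was far below the lowest WT library. The log2 fold change was -1.45 ± 0.09 (SE, 95% interval -1.66 to -1.25, adjusted p = 1.00e-05, limma), so that the WT mean was 2.74 times the mutant mean. In the second experiment the levels were 77.4, 109.8 and 90.5 FPKM in WT and 70.2, 70.5 and 64.9 FPKM in HDAC1cKO libraries. The groups did not overlap, but the log2 fold change of -0.42 ± 0.13 (95% interval -0.75 to -0.09) did not pass (adjusted p = 0.273).

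BTLA, which pairs with HVEM and recruits the same phosphatases as PD-1, showed the largest change of the set. Btla (chr16:45224315-45257670, plus strand) measured 131, 139, 131 and 138 FPKM in WT and 34.9, 31.7, 41.6 and 37.0 FPKM in HDAC1cKO-HDAC2HET libraries. The WT libraries kept within a narrow band and the mutant libraries within another. The log2 fold change was -1.90 ± 0.08 (95% interval -2.08 to -1.72, adjusted p = 2.09e-06), a WT mean 3.72 times the mutant mean. After restimulation Btla measured 108, 116 and 116 FPKM in WT and 91.6, 90.0 and 89.7 FPKM in HDAC1cKO libraries. These groups did not overlap either, with a log2 fold change of -0.32 ± 0.06 (95% interval -0.48 to -0.17, adjusted p = 0.169).

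Ctla4 was lower in both experiments. CTLA-4 removes CD80 and CD86 from antigen-presenting cells and limits costimulation. In the first experiment it measured 130.3, 119, 142 and 124 FPKM in WT and 113, 89.2, 75.6 and 91.6 FPKM in HDAC1cKO-HDAC2HET libraries, with no overlap but a wide spread among the mutant libraries. The log2 fold change was -0.49 ± 0.12 (95% interval -0.76 to -0.22, adjusted p = 0.00866). In the second experiment it measured 129, 109 and 98.2 FPKM in WT and 47.2, 45.3 and 47.0 FPKM in HDAC1cKO libraries. The log2 fold change was -1.26 ± 0.11 (95% interval -1.52 to -0.99, adjusted p = 0.0362), a WT mean 2.41 times the mutant mean. This call was lost when any 1 HDAC1cKO library or WT library 2 was left out, with adjusted p up to 0.155 while the log2 fold change stayed between -1.35 and -1.15. The gene spans chr1:60887000-60915832 on the plus strand, with 3 annotated transcripts, and overlaps the processed pseudogene Rpl18-ps1 on the same strand, so that its reads are uncertain to that extent. Its assembled locus began at 60909025, the start of 1 annotated transcript, in every library of the first experiment and at 60887000 in every library of the second, so its FPKM values rest on different transcript models in the 2 experiments.

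LAG-3 was the abundant receptor that rose. Lag3 (chr6:124904361-124911705, minus strand) measured 62.2, 59.8, 55.8 and 50.1 FPKM in WT and 183.2, 143, 141 and 142 FPKM in HDAC1cKO-HDAC2HET libraries. Mutant library 1 stood above the other mutant libraries, and all of them were above every WT library. The log2 fold change was 1.41 ± 0.10 (95% interval 1.17 to 1.65, adjusted p = 2.19e-05), a mutant mean 2.67 times the WT mean, and 1.32 without mutant library 1. After restimulation it measured 76.2, 50.7 and 74.4 FPKM in WT and 84.9, 105 and 84.1 FPKM in HDAC1cKO libraries. All mutant libraries were again above all WT libraries, with a log2 fold change of 0.46 ± 0.19 (95% interval 0.01 to 0.91) that did not pass (adjusted p = 0.345). Without WT library 2, the lowest, the fold change was 0.27.

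TIM-3, the remaining receptor with a higher level, was barely expressed. Havcr2 (chr11:46454935-46481255, plus strand) was listed at 0.0302, 0.0713, 0.0538 and 0.0708 FPKM in WT and 0.181, 0.306, 0.0967 and 0.116 FPKM in HDAC1cKO-HDAC2HET libraries. The groups did not overlap and the log2 fold change was 0.76 ± 0.26 (95% interval 0.15 to 1.37, adjusted p = 0.0413), but the gene met the minimum mean of 0.1 FPKM through its mutant libraries alone. The Cufflinks interval of WT library 1 ran from 0.00318 to 0.0571 FPKM. The call was lost under 9 of 18 alternatives, among them the omission of any WT library or of mutant library 1 (adjusted p up to 0.0982). In the second experiment WT library 1 was listed at 0.406 FPKM, above every HDAC1cKO library (0.182 to 0.247), and the other WT libraries were at 0.0765 and 0.0763 FPKM. The groups overlapped, and the log2 fold change was 0.28 ± 0.49 (adjusted p = 0.818). It was 0.79 without WT library 1 and 0.03 without either of the other WT libraries.

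Cd160, a receptor better known from NK and CD8+ T cells, kept a low level. Cd160 (chr3:96798763-96829351, minus strand) measured 8.02, 8.30, 8.01 and 9.36 FPKM in WT and 6.68, 7.35, 8.22 and 8.29 FPKM in HDAC1cKO-HDAC2HET libraries. The groups overlapped, with a log2 fold change of -0.14 ± 0.08 (95% interval -0.34 to 0.06, adjusted p = 0.204). Its locus overlaps Pdzk1 on the opposite strand, and its reads are uncertain to that extent. In the second experiment the locus was listed at 9.35 and 7.42 FPKM in 2 WT libraries and 7.32 FPKM in 1 HDAC1cKO library, and at 0 in the other 3 libraries. Such a 0 can be a failed estimate, and Cd160 was not tested there.

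The ligands that T cells themselves carry were lower or did not differ beyond the spread. Cd200 (chr16:45382135-45409053, minus strand) measured 192, 189.4, 203 and 185.5 FPKM in WT and 91.6, 89.1, 117 and 98.8 FPKM in HDAC1cKO-HDAC2HET libraries. No library of one group reached the other, and the log2 fold change was -0.96 ± 0.08 (95% interval -1.16 to -0.77, adjusted p = 4.79e-05). After restimulation, Cd200 measured 216, 316 and 224 FPKM in WT and 206, 238 and 224 FPKM in HDAC1cKO libraries, which overlapped (log2 fold change -0.16, 95% interval -0.55 to 0.23, adjusted p = 0.672). WT library 2 was the high one, and without it the fold change was 0.01.

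Cd274 (chr19:29367455-29388095, plus strand), encoding PD-L1, measured 33.0, 32.7, 34.8 and 31.5 FPKM in WT and 25.7, 23.0, 27.0 and 25.1 FPKM in HDAC1cKO-HDAC2HET libraries. The drop was small but without overlap, at -0.39 ± 0.05 on the log2 scale (95% interval -0.52 to -0.26, adjusted p = 5.82e-04). In the second experiment it measured 40.4, 40.5 and 39.3 FPKM in WT and 37.5, 35.3 and 37.1 FPKM in HDAC1cKO libraries, a log2 fold change of -0.13 (95% interval -0.28 to 0.02, adjusted p = 0.401). Pdcd1lg2 (chr19:29410919-29471161, plus strand), encoding PD-L2, measured 16.5, 18.9, 15.4 and 18.5 FPKM in WT and 16.0, 15.1, 17.0 and 15.3 FPKM in HDAC1cKO-HDAC2HET libraries. It overlapped in both experiments, with log2 fold changes of -0.12 (95% interval -0.30 to 0.05, adjusted p = 0.209) and -0.06 (95% interval -0.41 to 0.29, adjusted p = 0.875). Each of these ligand genes overlaps an annotated antisense transcript, and the counting is not stated to use strand.

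In total, 7 of 9 members, Havcr2 among them, did not overlap between HDAC1cKO-HDAC2HET and WT libraries, 2 above and 5 below, where 50.4% of all genes tested did not overlap. Havcr2 entered the test through its mutant libraries alone, and without it Lag3 is the only member above. Lack of overlap fixes the 2-sided exact permutation p of 4 against 4 libraries at its smallest value, 0.0286, so it adds nothing further. Between HDAC1cKO and WT libraries, 5 of 8 did not overlap, 1 above and 4 below, against 22.3% of all genes, and 3 against 3 libraries cannot give an exact permutation p below 0.1. The median log2 fold change of the tested members was -0.39 in HDAC1cKO-HDAC2HET and -0.14 in HDAC1cKO cells, beside -0.04 and -0.03 for all genes tested.

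**Figure D2:**
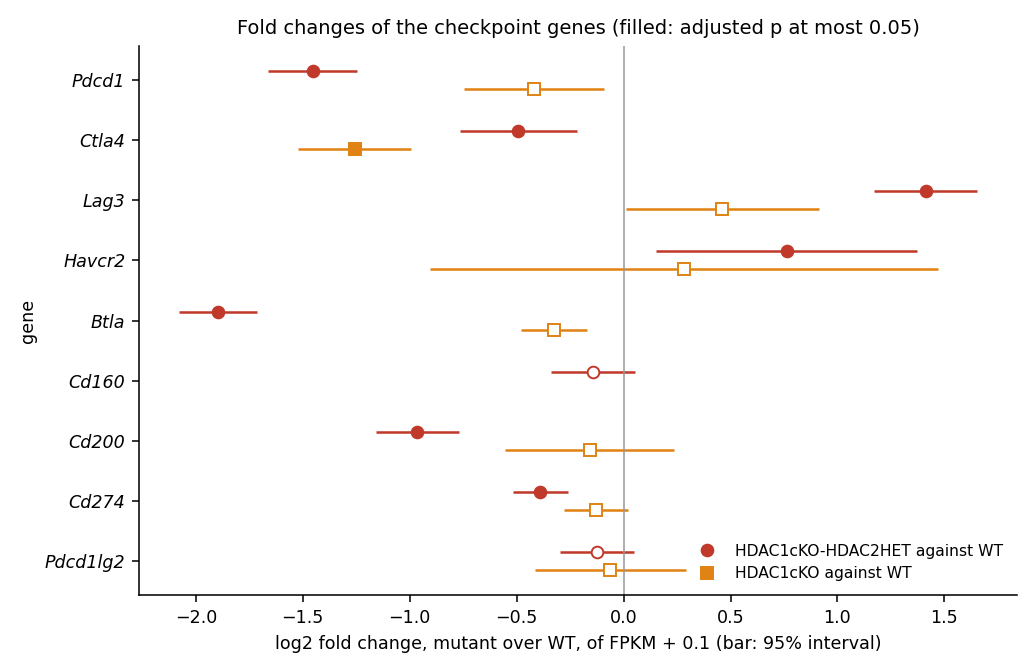
log2 fold changes of FPKM + 0.1 (horizontal axis) of the checkpoint genes (vertical axis), mutant over WT, with 95% intervals; circles stand for HDAC1cKO-HDAC2HET and squares for HDAC1cKO cells, and filled symbols passed at an adjusted p of at most 0.05. Btla and Pdcd1 lie at -1.90 and -1.45 and Lag3 at 1.41 in the first experiment, and only Ctla4, at -1.26, is filled in the second.

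The fold changes of the 2 experiments were then compared directly. A contrast over all 14 libraries, HDAC1cKO-HDAC2HET minus HDAC1cKO fold change, passed for 6 of 8 members, against 15.7% of the 12350 genes tested in both. Btla differed by -1.57 (95% interval -1.80 to -1.35, adjusted p = 1.06e-05), Pdcd1 by -1.03 (-1.39 to -0.68, adjusted p = 0.00147), Cd200 by -0.81 (-1.19 to -0.42, adjusted p = 0.00984) and Cd274 by -0.26 (-0.43 to -0.09, adjusted p = 0.0395), all with the deeper drop in HDAC1cKO-HDAC2HET cells. Lag3 differed by 0.95 (0.49 to 1.41, adjusted p = 0.0105), with the larger rise in HDAC1cKO-HDAC2HET cells. Ctla4 differed in the other sense, by 0.77 (0.40 to 1.14, adjusted p = 0.0106), since it fell further in HDAC1cKO cells, where its transcript model was the longer one. Havcr2 (0.48, -0.66 to 1.62) and Pdcd1lg2 (-0.06, -0.40 to 0.28) did not pass. Expression of Xist, the noncoding RNA of the inactive X chromosome, was not balanced in the second experiment: WT libraries 1 and 3 held 42.9 and 33.2 FPKM, while WT library 2 and all HDAC1cKO libraries were under 0.05 FPKM. With Xist class in the model, the genotype term of the second experiment set its HDAC1cKO libraries against WT library 2 alone. Values from that model thus rest on 1 WT library of that experiment. Btla then differed by -1.54 and Pdcd1 by -0.77. The differences of Ctla4 (0.74) and Cd274 (-0.25) stayed close to their sizes but no longer passed. Those of Cd200 (-0.46) and Lag3 (0.57) were smaller and no longer passed. Within the second experiment, the log2 fold change of Ctla4 in that model was -1.23 and no longer passed. That of Pdcd1 was -0.68, that of Lag3 0.84 and that of Cd200 -0.51.

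The opposite course of Lag3 and Pdcd1 was visible within single libraries. The ratio of Lag3 to Pdcd1 FPKM was 0.701 to 0.993 in 3-day WT and 4.88 to 8.28 in HDAC1cKO-HDAC2HET libraries. It was 0.462 to 0.985 in restimulated WT and 1.21 to 1.49 in HDAC1cKO libraries. Lag3 was thus below Pdcd1 in all 7 WT libraries and above it in all 7 mutant libraries. This pair joins the largest rise with a large fall, so the separation follows from their fold changes and is no further test. In the second experiment neither Lag3 (adjusted p = 0.345, limma) nor Pdcd1 (adjusted p = 0.273) passed alone. The ratio of Lag3 to Ctla4 went from 0.394 to 0.505 in 3-day WT to 1.55 to 1.87 in HDAC1cKO-HDAC2HET libraries, and from 0.464 to 0.758 to 1.79 to 2.32 in the second experiment. The ratio of Btla to Pdcd1, which both fell, moved far less, with means of 1.95 ± 0.09 and 1.44 ± 0.11 (SD, n = 4) in the first experiment and 1.24 ± 0.17 and 1.32 ± 0.05 (n = 3) in the second.

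**Figure D3:**
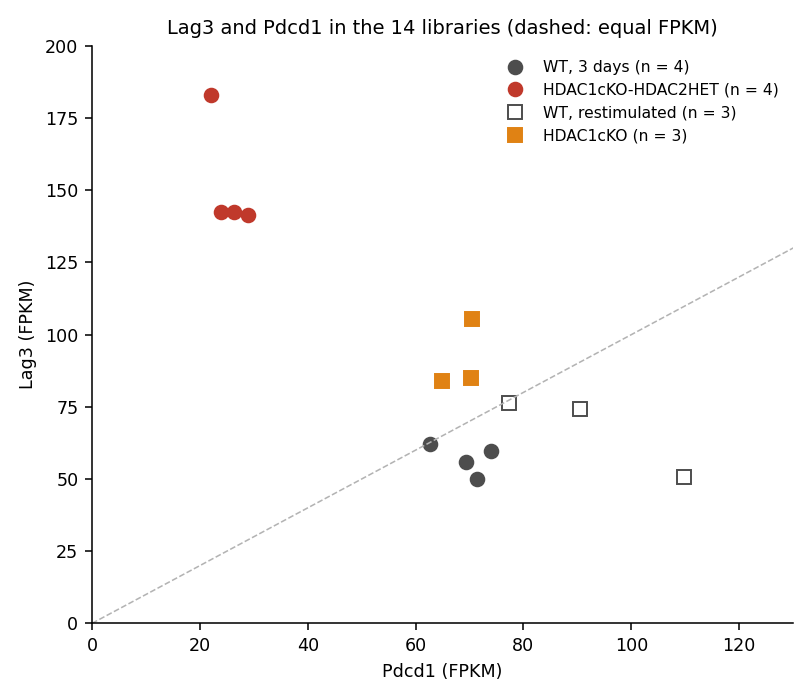
Lag3 FPKM (vertical axis) against Pdcd1 FPKM (horizontal axis) in each of the 14 libraries, with a dashed line where both are equal. All 7 WT libraries lie under the line and all 7 mutant libraries above it, with the HDAC1cKO-HDAC2HET libraries at the upper left, between 141 and 183.2 FPKM of Lag3.

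Ligands, costimulatory counterparts and other partners of the members moved in both directions as well. Of 15 partners, 14 were tested and all 14 passed in HDAC1cKO-HDAC2HET cells, 4 higher and 10 lower, with a median log2 fold change of -0.85, where 51.8% of all genes passed and their median was -0.04. Cd80, a ligand of CTLA-4 and CD28 that also binds PD-L1, rose from 7.00 ± 1.41 to 23.5 ± 1.71 FPKM (SD, n = 4; log2 fold change 1.75 ± 0.14, adjusted p = 3.33e-05). The galectins Lgals3 and Lgals9, lectins that bind glycans of LAG-3 and TIM-3, rose by 1.04 and 0.56 on the log2 scale (adjusted p = 0.00393 and 0.00392). Tnfsf14, a ligand of HVEM also called LIGHT, fell from 19.4 to 4.90 FPKM (log2 fold change -1.96 ± 0.10, adjusted p = 4.48e-06). Cd200r1, the receptor of CD200, fell from 1.68 to 0.335 FPKM (log2 fold change -2.04 ± 0.34, adjusted p = 0.00153). Rgmb, a PD-L2 partner, was at 0.790 to 1.19 FPKM in WT and at 0.0518, 0.0749 and 0.0172 FPKM in 3 mutant libraries, and was listed at 0 in the other. It entered the test through its WT libraries alone, and without it 4 of 13 partners were higher and 9 lower. In HDAC1cKO cells 0 of 14 partners passed in limma, 10 were at an unadjusted p under 0.05 (14.4% of all genes), and the median was -0.48 beside -0.03 for all genes.

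Inhibitory receptors outside the set also moved in both directions. Of 12, 8 were tested in HDAC1cKO-HDAC2HET cells, of which 2 rose, 4 fell and 2 did not pass, with a median log2 fold change of -0.28. Among all genes tested, 24.2% were higher, close to the 2 of 8, and 27.6% lower. Tigit, a receptor for CD155, was at 32.4, 17.1, 19.8 and 16.3 FPKM in WT and at 89.4, 82.9, 95.5 and 86.7 FPKM in mutant libraries, a log2 fold change of 2.10 ± 0.21 (adjusted p = 9.18e-05) without overlap. Cd72, a lectin-like receptor best known from B cells, rose by 0.75 (adjusted p = 2.98e-05). Lilrb4 changed by -1.49 from a level of 0.628 FPKM (adjusted p = 8.19e-04), Vsir, encoding VISTA, by -0.99 (adjusted p = 2.78e-05) and Cd96 by -0.52 (adjusted p = 0.00657). In HDAC1cKO cells 0 of 6 tested passed in limma, 1 was at an unadjusted p under 0.05 (14.4% of all genes), and the median was -0.12. Tigit overlapped there, at 16.1 to 37.3 FPKM in WT and 35.8 to 50.03 FPKM in HDAC1cKO libraries.

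Genes that carry or limit the signals of these receptors were examined next. Of 16, 15 were tested in HDAC1cKO-HDAC2HET cells: 2 were higher, 7 lower and 6 did not pass, with a median log2 fold change of -0.11. The 9 of 15 that passed are near the 51.8% of all genes. The adaptor Dok1 rose by 1.01 ± 0.06 (adjusted p = 1.09e-05) and Grb2 by 0.17 (adjusted p = 3.98e-04). Adam10, a protease that sheds LAG-3 and other surface proteins, changed by -0.998 ± 0.044 (adjusted p = 2.63e-06). Lrba, which protects CTLA-4 from lysosomal degradation, changed by -0.58 (adjusted p = 1.03e-04), and Fbxo38, a ubiquitin ligase subunit for PD-1, by -0.45 (adjusted p = 3.79e-05). Ptpn11, the phosphatase SHP-2 that acts below PD-1 and BTLA, was among those that did not pass (0.06, adjusted p = 0.247). In HDAC1cKO cells 0 of 15 passed in limma, 5 were at an unadjusted p under 0.05 (14.4% of all genes), and the median was -0.10.

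Transcription factors known to act at checkpoint genes moved in both directions. Of 19, 17 were tested in HDAC1cKO-HDAC2HET cells: 6 were higher, 6 lower and 5 did not pass, against 24.2% higher and 27.6% lower among all genes. Their median log2 fold change was 0.10. Prdm1, encoding Blimp-1, rose from 0.108 to 2.95 FPKM (log2 fold change 3.84 ± 0.21, adjusted p = 5.57e-06), Eomes from 2.84 to 36.8 FPKM (3.71 ± 0.25, adjusted p = 1.47e-05) and Tbx21, encoding T-bet, from 26.7 to 91.3 FPKM (1.83 ± 0.20, adjusted p = 1.80e-04). Bcl6 changed by -1.37 (adjusted p = 2.41e-05), Tox2 by -1.06 (adjusted p = 8.92e-04) and Tox by -0.94 (adjusted p = 7.69e-05). In HDAC1cKO cells 0 of 18 passed in limma, 7 were at an unadjusted p under 0.05 (14.4% of all genes), and the median was 0.02. The factors named above changed there by 0.76 (Prdm1), 2.31 (Eomes), 2.41 (Tbx21), -0.29 (Bcl6), 0.29 (Tox2) and -0.50 (Tox).

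**Figure D4:**
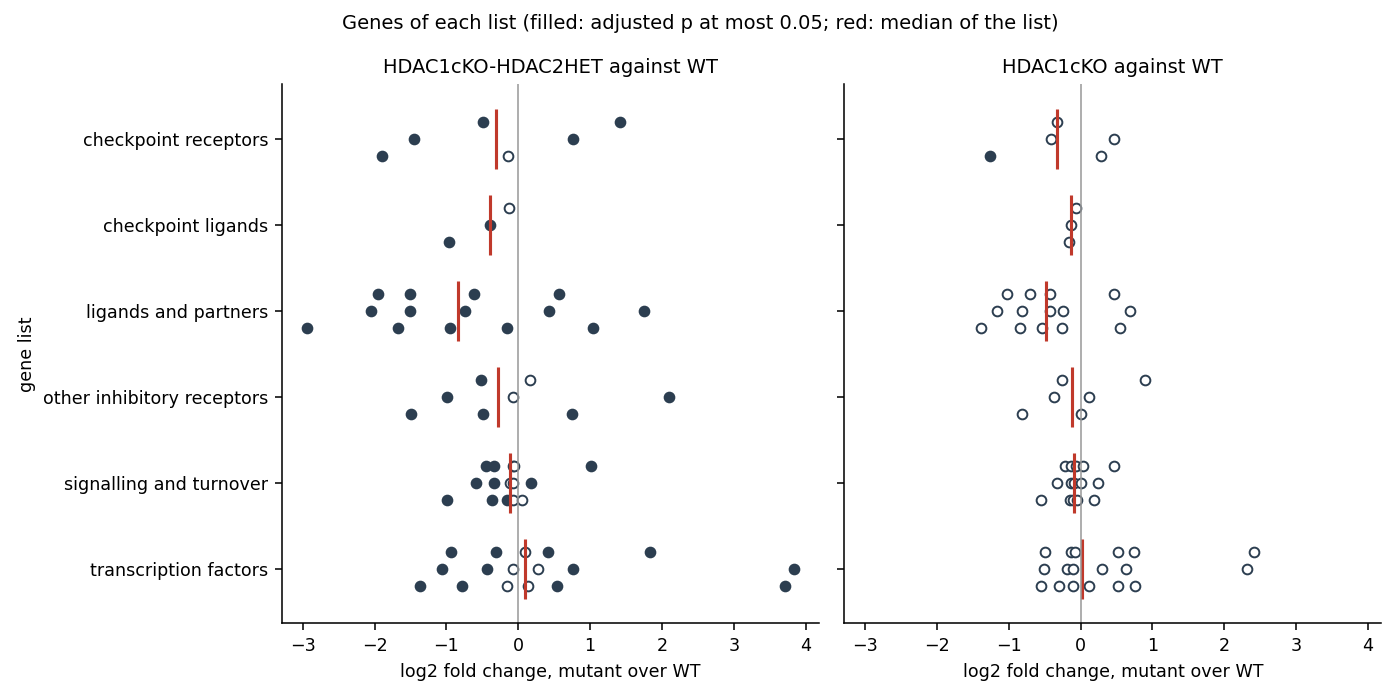
log2 fold changes, mutant over WT (horizontal axis), of the genes of 6 lists (vertical axis) in HDAC1cKO-HDAC2HET cells (left) and HDAC1cKO cells (right); each circle is 1 gene, filled where it passed at an adjusted p of at most 0.05, and red bars are list medians. In the left panel every list but the ligands holds filled circles on both sides of 0, and in the right panel the one filled circle is Ctla4.

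Several members lie side by side in the genome. Their nearest tested protein-coding genes were looked up on each side and added after their values were seen. Cd28 and Icos were also among the partners above, and Btla and Cd200 are both members. Shared directions are thus a description and no further test. Ctla4 lies between Cd28, 114 kb away, and Icos, 62.1 kb away, both costimulatory receptors of the same family. All of them were lower in HDAC1cKO-HDAC2HET cells, with log2 fold changes of -0.62 for Cd28 (adjusted p = 3.44e-05), -0.49 for Ctla4 and -0.74 for Icos (adjusted p = 5.75e-04). Of all genes tested in that comparison, 27.6% were lower. In HDAC1cKO cells Ctla4 changed by -1.26, while Cd28 (-0.26, adjusted p = 0.335) and Icos (-0.54, adjusted p = 0.285) did not pass. Btla and Cd200 lie 124 kb apart on chromosome 16 with no tested gene between them, and both fell in HDAC1cKO-HDAC2HET cells, by 1.90 and 0.96 on the log2 scale. On their outer sides, Atg3, 35.8 kb from Btla (-0.09, adjusted p = 0.0886), and Abhd10, 321 kb from Cd200 (-0.29, adjusted p = 0.242), did not pass.

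Lag3 lies 16.1 kb from Cd4, a related gene, and 1.98 kb from Ptms. Lag3 and Ptms were both higher in HDAC1cKO-HDAC2HET cells (1.41 and 0.63, adjusted p = 8.38e-05 for Ptms), while Cd4 was lower (-0.38, adjusted p = 1.64e-05). Of all genes tested there, 24.2% were higher and 27.6% lower. Cd274 and Pdcd1lg2 lie 22.8 kb apart on chromosome 19, where Cd274 passed and Pdcd1lg2 did not. Plgrkt, 0.065 kb before Cd274, did not pass (-0.07, adjusted p = 0.298), and Ric1, after Pdcd1lg2, was higher (0.51, adjusted p = 6.28e-05). Med7, 12.2 kb before Havcr2, was lower (-0.47, adjusted p = 2.58e-04) where Havcr2 was higher, as was Timd2, a gene of the same family on its other side (-1.07, adjusted p = 0.00637). Beside Pdcd1, D2hgdh was lower (-0.26, adjusted p = 0.0102) and Fam174a did not pass (-0.19, adjusted p = 0.102). Beside Cd160, Gpr89 was lower (-0.14, adjusted p = 0.0120) and Rnf115 did not pass (-0.06, adjusted p = 0.354).

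Promoters of the members were examined for the letters of factors known to act at checkpoint genes. RefSeq windows of GRCm38.p6 were held for 8 of the 9 members, all but Lag3, and the 250 bases before the annotated start were searched on both strands for RUNX (TGTGGT), T-box (TCACACC), the IRF element, GAS (TTCNNNGAA), NFAT (TGGAAA) and AP-1 (TGANTCA) letters. Windows of Pdcd1, Btla, Ctla4 and Cd200 are shown because these were the 4 members with the largest falls in either experiment, 5′ to 3′ on the strand of the gene, with matches in capitals.
Pdcd1, chr1:94052554-94052803, minus strand: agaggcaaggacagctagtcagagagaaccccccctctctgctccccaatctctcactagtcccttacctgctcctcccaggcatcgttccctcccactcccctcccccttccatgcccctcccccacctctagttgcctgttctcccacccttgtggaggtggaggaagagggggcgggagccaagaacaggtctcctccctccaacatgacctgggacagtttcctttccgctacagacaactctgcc
Btla, chr16:45224087-45224336, plus strand: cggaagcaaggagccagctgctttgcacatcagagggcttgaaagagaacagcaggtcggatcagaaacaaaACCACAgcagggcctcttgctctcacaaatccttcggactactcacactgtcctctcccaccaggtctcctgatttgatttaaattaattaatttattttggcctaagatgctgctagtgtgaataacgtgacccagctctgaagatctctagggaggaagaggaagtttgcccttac
Ctla4, chr1:60908775-60909024, plus strand: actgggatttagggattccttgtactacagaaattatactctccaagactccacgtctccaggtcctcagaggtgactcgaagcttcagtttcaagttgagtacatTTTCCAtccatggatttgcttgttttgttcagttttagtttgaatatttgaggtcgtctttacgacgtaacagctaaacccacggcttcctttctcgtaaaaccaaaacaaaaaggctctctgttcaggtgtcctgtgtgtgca
Cd200, chr16:45409054-45409303, minus strand: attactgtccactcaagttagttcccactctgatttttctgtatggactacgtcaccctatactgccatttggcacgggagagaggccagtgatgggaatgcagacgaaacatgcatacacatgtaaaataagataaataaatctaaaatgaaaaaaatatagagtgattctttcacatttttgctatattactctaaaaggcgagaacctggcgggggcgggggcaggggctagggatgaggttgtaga

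The Btla window held 1 RUNX match on the opposite strand, 178 to 173 bases before the start, and the Ctla4 window 1 NFAT match on the opposite strand, 144 to 139 bases before it. RUNX letters occurred in 4614 of all 32851 windows of this length and NFAT letters in 6104 of them (18.6%). The Pdcd1 and Cd200 windows held 0 matches, as did those of Cd274 and Pdcd1lg2. Havcr2 held an AP-1 match 200 to 194 bases and a RUNX match 46 to 41 bases before the start, and AP-1 letters occurred in 6.75% of all windows. Cd160, which did not pass, had 2 windows. Its upstream window held 1 RUNX match 76 to 71 bases before the start, and its other window 1 RUNX match 101 to 96 bases before it, as well as 1 T-box and 1 GAS match farther up, where T-box and GAS letters occurred in 3.33% and 7.02% of all windows. No motif was shared by the windows of the members that fell, and the window of the longer Ctla4 transcript seen in the second experiment was not searched.

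Finally, the genes most like each member over all 14 libraries were sought, by the root-mean-square distance between log2(FPKM + 0.1) values centred on each gene's mean, among the 12350 genes tested in both experiments. For Btla these were Sla (0.12) and Usp54 (0.15), both of which fell in HDAC1cKO-HDAC2HET cells, with log2 fold changes of -1.86 and -1.99, and for Pdcd1 they were Zfp418 (0.15) and Gpr174 (0.16). Traf4 (0.17) and Fez2 (0.18) came nearest to Lag3, and Sh3bp5 (0.19) and Foxd2 (0.22) to Ctla4. Sh3bp5 shared the order seen for Ctla4, with a log2 fold change of -0.42 in HDAC1cKO-HDAC2HET and -0.99 in HDAC1cKO cells. Cd274 was nearest to Wdr48 (0.05) and Yif1b (0.07), Pdcd1lg2 to Mcm8 (0.09) and Rars2 (0.09), and Havcr2 to Rem2 (0.26) and Gm15541 (0.31). No member was among the 2 nearest genes of another member, and no gene was shared between members. The 14 libraries share the genotype contrast and the step between experiments, so such likeness is a description of these libraries.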

How the data were processed

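RNA-Seq libraries of FACS-sorted CD4+ T cells were made with a stranded mRNA kit and sequenced as single reads. Per the paper's methods, the authors ran TopHat on the mm10 build and then Cufflinks, which gave the deposited FPKM value and confidence bounds of each gene or locus. The labels' processing notes also list STAR 2.5.2b, Subread 1.5.1 and edgeR, whose output was not used here. Assembly ran per library, so a gene is listed by name in some libraries and as an unnamed locus in others. Unnamed loci were matched by position where they shared at least 0.8 of the joint span with a GENCODE gene or transcript, and matched loci at 0 were left out.

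Genes with a mean of at least 0.1 FPKM were fitted on log2(FPKM + 0.1) with limma 3.58.1 in R 4.3.3, with variances that follow a trend on intensity, and p-values were adjusted by Benjamini and Hochberg's method over all genes tested. Such fold changes understate the change of low genes. Each experiment was fitted alone, and the difference between fold changes was a contrast over all 14 samples. For each member a 2-sided exact permutation test over libraries was added (scipy 1.17.1). The fits were also run on simulated data, with an outcome not reported here. Its planted changes left out low genes such as Havcr2 and changes as small as that of Cd274. Depth was estimated from the confidence bounds of low genes, of which 78.5% to 87.5% per library gave whole fragments within 0.05, and intervals cover counting error only.

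The named genes were the 9 members, Hdac1 and Hdac2, the 3 largest rises and 3 largest falls past the test per list and experiment, and the 2 genes most like each member (those of Cd200 are not reported here), and Ptpn11 and the genomic neighbours were added after their values were seen. The members and lists were chosen with earlier results of these data known. Alternatives changed the pseudocount, filter, scaling, variance model, locus matching, covariates, call rule and each library in turn.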

Additional observations from a re-analysis of the deposited data

Results flagged for a closer look

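The Lag3 level of HDAC1cKO-HDAC2HET library 1, 183.2 FPKM, stood far from the other mutant libraries (141 to 143 FPKM), by a check of the gap at either end of each group of 4 libraries. It was the one such value among 18 groups checked, and chance gives about 1 in 20 groups. The log2 fold change of Lag3 without that library was 1.32.

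For 6 members the log2 fold change differed between the experiments by a test of the difference itself. HDAC1cKO-HDAC2HET minus HDAC1cKO, the difference was -1.57 for Btla, -1.03 for Pdcd1, 0.95 for Lag3, -0.81 for Cd200, 0.77 for Ctla4 and -0.26 for Cd274. Genotype, restimulation and library pool cannot be told apart in these differences. Xist was not balanced either: every library of the first experiment expressed it, while the HDAC1cKO libraries barely did. The difference of Ctla4 also rests on different transcript models in the experiments.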

How the results depend on the processing

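Pdcd1, Lag3 and Btla passed in HDAC1cKO-HDAC2HET cells under every alternative in which they could be fitted. Ctla4, Cd200 and Cd274 did so under all but the added fold change of at least 2. The differences of Btla and Pdcd1 between experiments passed under every alternative in which they could be fitted. The count of 2 higher members became 1 with a pseudocount of 1, a minimum mean of 1 FPKM, the replicate block, 14 samples in 1 fit or a fold change of at least 2, through Havcr2, and ranged from 1 to 2 with 1 library left out. With genes listed by name alone, which leaves Havcr2 as the one member, it was 0 higher and 0 lower. The count of 5 lower became 2 with the fold limit. The 1 lower member in HDAC1cKO cells, Ctla4, became 0 without the intensity trend, with the replicate block, with Xist class or with named genes alone, and 3 with 14 samples in 1 fit, and ranged from 0 to 1 with 1 library left out. The 6 differences became 2 with the fold limit and 0 with named genes alone. With Xist class, those of Ctla4, Lag3, Cd200 and Cd274 no longer passed. In that fit the genotype term of the second experiment rests on WT library 2 alone among the WT libraries.

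Directions turned for values that had not passed. In HDAC1cKO cells, leaving out 1 library at a time moved the log2 fold change of Cd200 between -0.26 and 0.015 and that of Pdcd1lg2 between -0.21 and 0.047, with both turns on leaving out WT library 2. The difference of Havcr2 between the experiments ranged from -0.026 to 0.73 and that of Pdcd1lg2 from -0.17 to 0.084, and both turned on leaving out WT library 1 of the second experiment. With Xist class as a covariate these differences were -0.026 and 0.16. All libraries of the first experiment expressed Xist, so no Xist fit was made there. The difference of Cd274 was lost under 15 of 26 alternatives, with adjusted p up to 0.154.

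Replicate numbers did not pair the samples: deviations of same-numbered libraries correlated at -0.03 to 0.07. With the replicate block, Havcr2 (adjusted p = 0.0731), HDAC1cKO Ctla4 (0.25) and the difference of Cd274 (0.0598) no longer passed. Precision is lower in the second experiment, with 3 libraries per genotype, and Havcr2 rests on few fragments.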
